A study of Saccharomyces cerevisiae with 24 samples.

Results

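The subject is the second day of culture without Snf1: 3 libraries of the *snf1*∆ strain JS1394 at 48 hr, set against 3 libraries of the same strain at 24 hr. These 6 of the 24 libraries of the series were chosen by strain and time label alone. JS1394 is a haploid *MAT*a yeast (*his3*∆1 *leu2*∆0 *met15*∆0 *ura3*∆0) in which a *kanMX4* cassette replaces *SNF1*. WT strain JS1256 has the same marker deletions and came from dissection of the same diploid, and its 3 libraries at 48 hr and 3 at 24 hr show the same interval with the kinase present. The suppressor JS1416 (*snf1*∆ *cyc8-G337S*) is used here only to describe 1 library that stands apart. All cultures were grown at 30°C with 2% glucose. The study's methods name SC medium, whereas the sample labels name YPD, and the methods describe the log and 24 hr harvests of triplicate cultures without a 48 hr one. Each mutant strain was 1 isolate, so nothing here separates the genotype from that isolate.

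Snf1 is the yeast AMP-activated kinase. When glucose runs out it inactivates the repressor Mig1, which works with the Cyc8-Tup1 corepressor, and turns on activators such as Cat8 and Adr1, so that cells can use ethanol, acetate and other carbon sources. This diauxic shift normally brings respiration, stress protection and reserve carbohydrate genes up and ribosome synthesis down. Which of these changes came late in *snf1*∆, and which features of the first day faded, is what the 48 hr and 24 hr libraries compare.

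The deposited values are whole-number read counts per ORF. Totals ran from 1861082 to 2298919 at 48 hr and from 3749146 to 9761488 at 24 hr in *snf1*∆, so the 48 hr side is the shallower. Levels below are CPM, read counts divided by library size and scaled with TMM factors. *SNF1* had 7, 4 and 3 counts in the *snf1*∆ libraries at 48 hr and 11, 6 and 7 counts at 24 hr, against 310, 323 and 394 counts in WT at 48 hr and 234, 319 and 386 counts in WT at 24 hr. *MET17*, the gene removed by *met15*∆0, had 0 counts in every library. Summed over 4 genes, *MAT*alpha-specific transcripts stayed between 64.2 and 134.9 CPM in the 6 *snf1*∆ libraries, while the 6 *MAT*a-specific genes summed to 738.1 CPM or more. Replicate 3 at 48 hr stands apart. Across genes its Pearson correlation was 0.984 with the library labelled JS1416 replicate 2 at 48 hr, but 0.905 and 0.901 with *snf1*∆ replicates 1 and 2, which correlated at 0.972. Between replicates 1 and 2 the chi-square of the counts per degree of freedom was 2.06, so they differed by more than sampling noise, and it was 75.6 and 73.2 between each of them and replicate 3. Conversely, the library labelled JS1416 replicate 1 at 48 hr correlated at 0.984 and 0.9805 with *snf1*∆ replicates 1 and 2, and at 0.928 and 0.8836 with the other JS1416 libraries at 48 hr. Whether libraries were exchanged was not tested. All were kept under their labels, so every value with replicate 3 depends on its label. Values without replicate 3 are added for most lists and for some of the genes that differ. The other fold changes rest on all 3 late libraries. Genes are not independent replicates, so these correlations carry no test.

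Calls below rest on an adjusted p under 0.05 over 6616 genes (edgeR's quasi-likelihood test, Benjamini-Hochberg adjustment). At 48 hr against 24 hr in *snf1*∆, 1313 genes (19.8%) were called higher and 1422 (21.5%) lower. Without replicate 3 the calls were 1419 higher (21.4%) and 1617 lower (24.4%), and 1110 of the 1313 and 1251 of the 1422 were among them. In 1332 genes (20.1%) all 48 hr libraries lay above all 24 hr libraries, and in 1604 (24.2%) all lay below. WT had 1294 genes (19.6%) higher and 1309 (19.8%) lower over the same hours. The difference of the 2 responses, *snf1*∆ minus WT, was itself called positive for 1329 genes (20.1%) and negative for 1454 (22.0%). Of the 1313 genes that rose in *snf1*∆, 156 (11.9%) also rose in WT and 370 (28.2%) fell there, and of the 1422 that fell, 288 (20.3%) fell in WT and 420 (29.5%) rose. Seen from WT, 156 of 1294 risers (12.1%) rose in *snf1*∆ and 420 (32.5%) fell. Over all genes, the median log2 fold change was -0.005 in *snf1*∆ and -0.019 in WT with TMM. With library size as the only scale it moved by over 0.1, to -0.46 in *snf1*∆, and the calls were 624 higher and 2675 lower. The median of the difference of responses then moved to -0.92, and it was -0.13 with upper-quartile factors. Counts of list members with library size alone, or shares of all counts, are therefore added for most of the lists described below. In whole cultures, a change in the share of cells that express a gene and a change in RNA per cell cannot be told apart.

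Many of the late risers were genes that WT had already raised on the first day. The WT comparison of 24 hr with log phase shares no library with the *snf1*∆ comparison of 48 hr with 24 hr. WT raised 2725 of the 6616 genes (41.2%) by 24 hr and lowered 2550 (38.5%). Of the 2725, 822 (30.2%) rose in *snf1*∆ between 24 hr and 48 hr and 372 (13.7%) fell. Of the 2550, 813 (31.9%) fell late in *snf1*∆ and 257 (10.1%) rose. The 822 made up 62.6% of all late risers and the 813 made up 57.2% of all late fallers, to be read against the 41.2% and 38.5% of all genes. Without replicate 3 the same counts were 875 (32.1%) and 958 (37.6%). A rise at 48 hr does not mean that a gene was flat before. In *snf1*∆ itself 2412 genes (36.5%) were higher and 2021 (30.5%) lower at 24 hr than in log phase, and these first-day counts are set beside those of 48 hr against 24 hr for the main lists. Both comparisons use the 24 hr libraries, so no overlap between them is given.

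**Figure D1:**
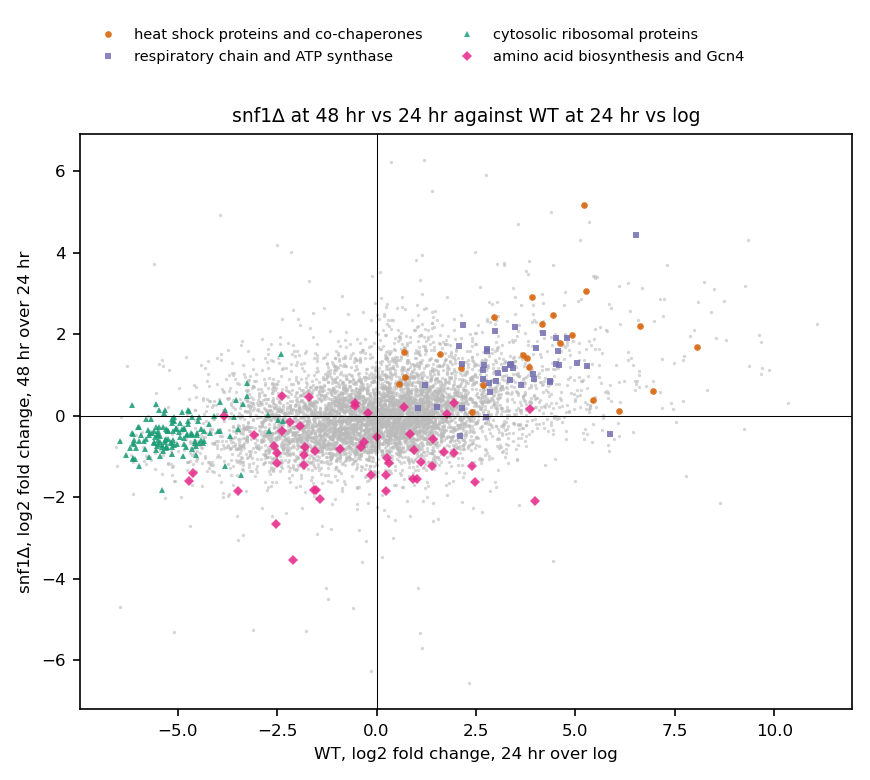
Each point is a gene. The horizontal axis gives its log2 fold change in WT at 24 hr over log, the vertical axis its log2 fold change in *snf1*∆ at 48 hr over 24 hr, and 4 gene lists are coloured. Heat shock and respiratory genes lie mostly at the upper right, with medians of 1.52 and 1.18 on the vertical axis, and ribosomal protein genes at the lower left, with a median of -0.45.

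**Figure D2:**
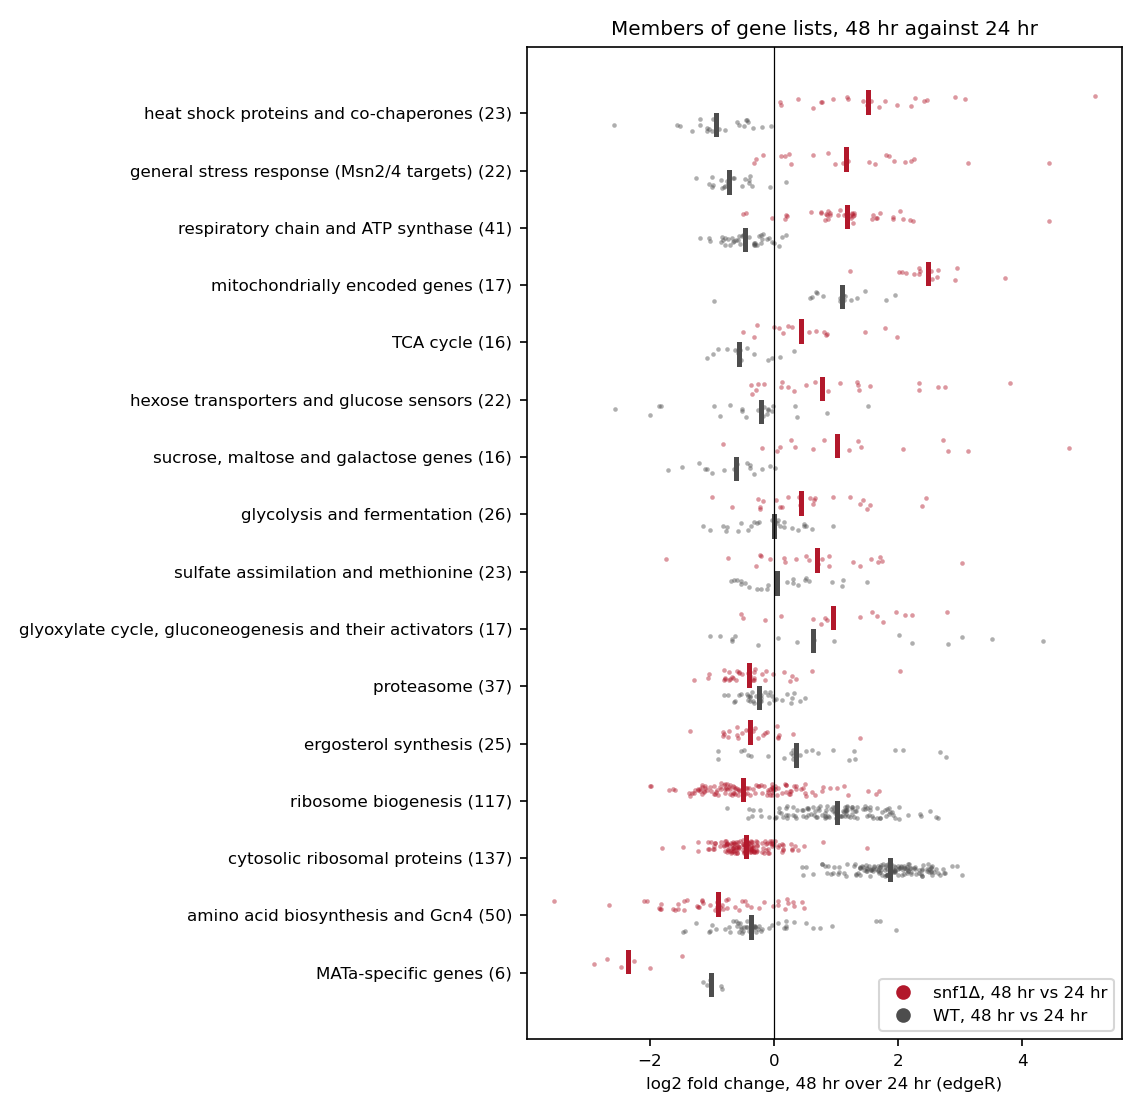
Log2 fold change at 48 hr over 24 hr (edgeR, TMM) for the members of 16 gene lists, with the number tested in brackets. Points are genes, bars are medians, red is *snf1*∆ and grey is WT. Heat shock genes had medians of 1.52 in *snf1*∆ and -0.93 in WT, and cytosolic ribosomal protein genes -0.45 and 1.86 in the same strains.

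Protein folding genes rose on the second day. Of 23 heat shock proteins and co-chaperones, 19 rose at 48 hr in *snf1*∆ and 0 fell, with a median log2 fold change of 1.52 beside -0.005 for all genes. The same counts held without replicate 3 (median 1.69), and with library size alone 16 rose and 1 fell. In WT the list went the other way, with 17 members lower and 0 higher (median -0.93). The difference of responses was called positive for 21 members. On the first day in *snf1*∆, at 24 hr against log, 9 were higher and 5 lower (median 0.13). As a share of all counts, the list took 3.53, 3.51 and 4.10% of the *snf1*∆ libraries at 48 hr, against 1.57, 1.56 and 1.49% at 24 hr. It took 3.85, 3.36 and 4.13% of the WT libraries at 48 hr and 7.54, 7.53 and 7.38% at 24 hr.

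*BTN2* (YGR142W, chromosome VII, 772454 to 773686 in the R64 build), whose product gathers misfolded proteins for later refolding, had the largest rise among called genes that did not overlap between times and averaged 3 or more in log2 CPM. It had 936, 953 and 762 CPM at 48 hr, against 22.6, 21.0 and 29.4 CPM at 24 hr in *snf1*∆. All 3 late libraries were far above the early ones (log2 fold change 5.17 ± 0.24 SE, adjusted p = 1.2e-11), and without replicate 3 the value was 5.27 (adjusted p = 4.8e-12). WT had 1495, 999 and 1782 CPM at 48 hr, against 1458, 1531 and 1423 CPM at 24 hr, levels that overlapped, with a log2 fold change of -0.04 ± 0.20 (SE, adjusted p = 0.88). *HSP82*, which encodes an Hsp90 chaperone, had 3388, 3305 and 2216 CPM at 48 hr, against 312, 343 and 405 CPM at 24 hr in *snf1*∆. The groups did not overlap (log2 fold change 3.07 ± 0.22 SE, adjusted p = 3e-09), whereas WT had 2956, 2290.0 and 3434 CPM at 48 hr, against 5875, 6084 and 6005 CPM at 24 hr. *HSP30*, a plasma membrane heat shock protein and the member with the highest CPM per kb of the list, had 24016, 24002 and 20534 CPM at 48 hr, against 7619.5, 7731 and 5899.8 CPM at 24 hr (log2 fold change 1.69 ± 0.26 SE, adjusted p = 3.4e-05). Replicate 3 was the lowest library at both times, without overlap. In WT, *HSP30* fell (-2.58 ± 0.26 SE, adjusted p = 7.1e-07). Members outside the call were *SSA3*, *HSF1*, *HSP32* and *HSP33*, and over 70% of the 75-base sequences of the last pair also occur elsewhere in the genome.

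The heat shock factor Hsf1 binds repeats of the unit NGAAN. The 400 bases from 500 to 100 before each start codon were searched on both strands for the heat shock element, defined as 3 units of GAA that alternate with its reverse complement, with 2 bases between neighbours. Such a match stood before 82 of 6000 protein-coding genes (1.4%) and before 11 of the 23 genes of the list (47.8%). The list was made of heat shock genes, so its high share describes the list and not the late change. The 19 members that rose included some without a match. Of the 11 genes with a match, the sites of 9 are shown because their transcripts rose. *SSA1* and *SSA2*, which also rose, are left out because over 50% of their 75-base sequences occur elsewhere. They are given 5′ to 3′ toward the gene from the RefSeq R64 sequence, with the matched bases in capitals.
BTN2: ttttttTTCTAGAAAGTTCCGGAAaattgc
FES1: ggactgGAATCTTCTGGAAgttttt
HSP10: atgataGAAATTTCTAGAAtcttga
STI1: atgataGAACATTCCAGAAaaaaaa
HSP104: atatttTTCCAGAATTTTCTAGAAgggtta
SSE1: agatgaTTCTAGAAGATTCcttttc
HSP60: ctcgtgGAATTTTCCAGAAaaccaa
AHA1: acaatgGAATTTTCTAGAAgaaaaa
SIS1: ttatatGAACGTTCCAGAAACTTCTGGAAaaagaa
From top to bottom these genes changed by 5.17, 2.91, 2.42, 2.26, 1.98, 1.52, 1.5, 1.20 and 1.17 on the log2 scale in *snf1*∆ at 48 hr over 24 hr. *FES1* encodes a nucleotide exchange factor of Hsp70, *HSP10* and *HSP60* the mitochondrial chaperonin, *STI1* an Hsp90 co-chaperone, *HSP104* the disaggregase, *SSE1* an Hsp110, *AHA1* an activator of Hsp90 and *SIS1* an Hsp40. In WT over the same hours they changed by -0.04, -0.33, -0.19, -0.89, -1.08, -1.20, -1.19, -0.59 and -0.99. The longest run of units, 23 bases, stood before *SIS1*, and *HSP82*, with a larger rise, held no match in this window. A match describes the letters and not a bound site.

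The general stress response, already up at 24 hr, rose further. Of 22 targets of Msn2 and Msn4, the activators of that response, 14 rose in *snf1*∆ and 0 fell (median 1.15). Without replicate 3, 12 rose and 2 fell (median 0.98), and with library size alone 12 rose and 0 fell. At 24 hr against log 22 were higher and 0 lower (median 3.08). WT showed 0 higher and 13 lower (median -0.73), but 2 higher and 2 lower with library size alone, so its direction rests on the scaling. *SPI1*, a cell wall protein of non-dividing cells, had 17308, 17141 and 16039 CPM at 48 hr, against 2240.3, 2071 and 1478 CPM at 24 hr. The late libraries were close together and all above the early ones (log2 fold change 3.12 ± 0.28 SE, adjusted p = 5.6e-08). *CYC7*, the starvation form of cytochrome c, had 197, 235 and 175 CPM at 48 hr, against 7.70, 9.82 and 10.3 CPM at 24 hr. That rise (log2 fold change 4.43 ± 0.26 SE, adjusted p = 2.7e-10) gave late levels that overlapped those of WT, which had 244, 214 and 341 CPM at 48 hr, against 199, 168 and 335 CPM at 24 hr. The difference of responses was 4.24 ± 0.32 (SE, adjusted p = 1.1e-08) for *CYC7* and 3.88 ± 0.37 (SE, adjusted p = 1.3e-07) for *SPI1*. *HOR7*, a small membrane protein with the highest CPM per kb in the list, also rose (log2 fold change 1.94 ± 0.27 SE, adjusted p = 1.6e-05).

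*TMA10*, which encodes a ribosome-associated protein, had 969, 1057 and 1909 CPM at 48 hr, against 66.1, 69.9 and 60.2 CPM at 24 hr in *snf1*∆. Replicate 3 was the highest, and the groups did not overlap (log2 fold change 4.33 ± 0.36 SE, adjusted p = 2.9e-08, or 3.95 without replicate 3). The stress element bound by Msn2 and Msn4 is AGGGG, or CCCCT on the other strand. It occurred in the same upstream window of 1752 of 6000 genes (29.2%) and of 21 of the 22 listed targets (95.5%). The list was made of targets of the factors that bind this element, so its high share describes the list and not the late change. Stretches before *SPI1* and *TMA10* are shown with the element in capitals, since both genes rose in every late library.
SPI1, chrV:468055-468174, plus strand: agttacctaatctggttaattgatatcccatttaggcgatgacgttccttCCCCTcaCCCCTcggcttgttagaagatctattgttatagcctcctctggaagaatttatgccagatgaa
TMA10, chrXII:783663-783782, minus strand: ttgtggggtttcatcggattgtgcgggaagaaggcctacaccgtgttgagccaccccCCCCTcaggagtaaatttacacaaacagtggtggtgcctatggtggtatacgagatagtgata
The *SPI1* stretch holds 2 of the 3 elements in its window, a few bases apart, and the *TMA10* stretch holds 1.

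Genes of stationary phase and desiccation gave a mixed picture, with 12 of 22 higher and 3 lower (median 1.07), against 8 and 5 without replicate 3 (median 0.51). Scaled by library size alone, 10 rose and 3 fell. At 24 hr against log 20 were higher and 0 lower (median 2.37). *NQM1*, a transaldolase paralog, had 1878, 1852 and 1189 CPM at 48 hr, against 306, 280.2 and 256 CPM at 24 hr (log2 fold change 2.55 ± 0.22 SE, adjusted p = 4.2e-08), with no overlap. *STF2*, a hydrophilin, had 962, 896 and 716 CPM at 48 hr, against 306, 333 and 308 CPM at 24 hr. It was higher in every late library (log2 fold change 1.44 ± 0.19 SE, adjusted p = 8.2e-06). Other members depended on replicate 3. *MPC3*, a subunit of the mitochondrial pyruvate carrier, had 29.7, 27.4 and 245 CPM at 48 hr, against 22.8, 20.2 and 21.1 CPM at 24 hr, and its change was 0.42 (adjusted p = 0.57) without that library. *FMP45*, a membrane protein of the cell cortex, had 40.8, 28.7 and 231 CPM at 48 hr, against 345, 313 and 188 CPM at 24 hr. Its fall (log2 fold change -1.48 ± 0.58 SE, adjusted p = 0.046) was -3.01 (adjusted p = 0.00012) without replicate 3, and it was not called without replicate 1 or replicate 2 of either time. Of 7 trehalose genes 2 rose and 0 fell, 1 rose without replicate 3, and 0 rose and 1 fell with library size alone, so the direction rests on the scaling. *NTH1*, the neutral trehalase, had 466, 478 and 329 CPM at 48 hr, against 256, 258 and 248 CPM at 24 hr (log2 fold change 0.74 ± 0.15 SE, adjusted p = 0.00081). With library size alone that call was lost. *TPS1*, the trehalose phosphate synthase, had 892, 966 and 1096 CPM at 48 hr, against 831, 835 and 663 CPM at 24 hr and was not called (log2 fold change 0.34 ± 0.18 SE, adjusted p = 0.13).

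**Figure D3:**
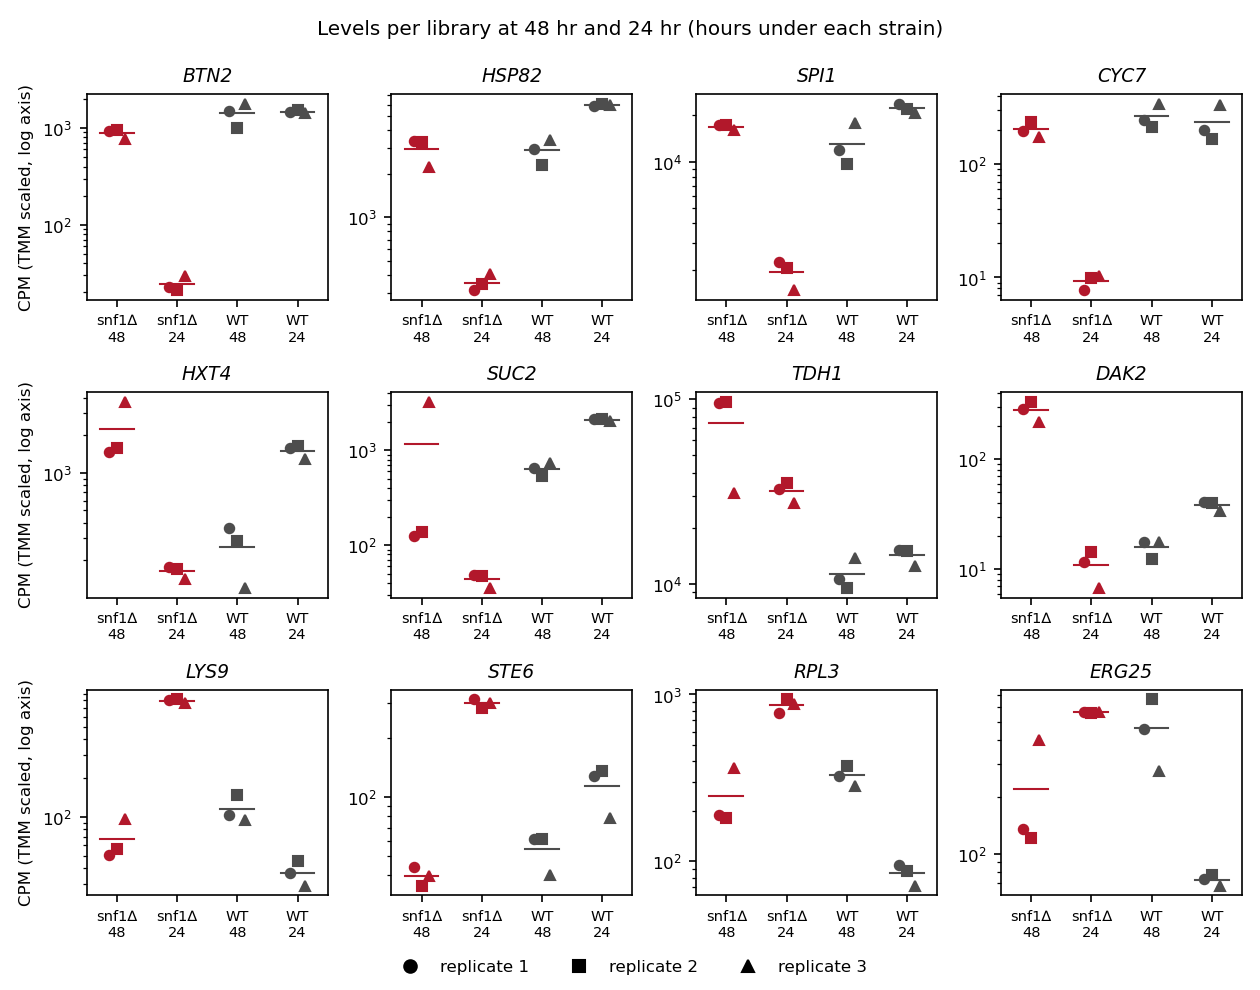
Levels of 12 named genes in each library, in TMM-scaled CPM on a log axis, for *snf1*∆ at 48 hr and 24 hr and WT at 48 hr and 24 hr. Symbols mark replicates 1, 2 and 3 and lines the group means. For *SUC2* the replicate 3 library at 48 hr, at 3279 CPM, carries the mean.

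Nuclear genes of respiration, most of them already higher at 24 hr than in log phase, rose further, and their share of counts stayed below that of WT. At 24 hr against log 34 were higher and 2 lower (median 0.92). For 48 hr against 24 hr, of 41 subunits and regulators of the respiratory chain and ATP synthase, 35 were higher at 48 hr in *snf1*∆ and 0 lower (median 1.18). Without replicate 3, 34 were higher and 1 lower, and with library size alone 27 and 1. In WT, 0 were higher and 20 lower, but 3 and 2 with library size alone. The list took 1.07, 1.05 and 1.68% of counts in *snf1*∆ at 48 hr and 0.81, 0.78 and 0.75% at 24 hr. In WT it took 3.56, 3.28 and 3.91% at 48 hr and 3.68, 3.67 and 3.75% at 24 hr. *ATP15*, the epsilon subunit of ATP synthase, had 517, 466 and 490.5 CPM at 48 hr, against 267, 293 and 231 CPM at 24 hr. The late libraries were all above the early ones (log2 fold change 0.90 ± 0.16 SE, adjusted p = 0.00022). *NDE1*, an external NADH dehydrogenase, had 215, 207 and 891 CPM at 48 hr, against 95, 94.7 and 89.7 CPM at 24 hr. It was highest in replicate 3, and its log2 fold change of 2.23 became 1.18 (adjusted p = 0.0036) without it.

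In the TCA cycle, 7 of 16 genes rose and 0 fell, against 6 and 3 without replicate 3. The median was 0.43 with that library and -0.03 without it. The list took 0.39, 0.38 and 0.82% of counts in *snf1*∆ at 48 hr and 0.49, 0.46 and 0.46% at 24 hr, so its share rose in replicate 3 only. The rise was clearest for succinate dehydrogenase. *SDH1*, its flavoprotein, had 384, 356 and 591 CPM at 48 hr, against 133, 127 and 77.7 CPM at 24 hr (log2 fold change 1.98 ± 0.26 SE, adjusted p = 6.9e-06). *SDH4*, a membrane anchor, had 567, 529.7 and 685 CPM at 48 hr, against 201, 182 and 132 CPM at 24 hr (log2 fold change 1.79 ± 0.18 SE, adjusted p = 2.9e-07). Neither overlapped between times. *CIT1*, mitochondrial citrate synthase, had 951, 943 and 1456 CPM at 48 hr, against 1199, 1100.1 and 1045 CPM at 24 hr, and the groups overlapped (log2 fold change 0.00 ± 0.18 SE, adjusted p = 0.99). In WT, 8 of the list fell, but 1 rose and 1 fell with library size alone.

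Of 18 mitochondrially encoded genes 17 passed the filter on low counts, and they also rose, 15 of 17 in *snf1*∆ (median 2.48) and 7 in WT (median 1.1). In *snf1*∆ without replicate 3, 13 rose (median 2.44). *OLI1*, ATP synthase subunit 9, had 185, 283 and 125 CPM at 48 hr, against 24.8, 33.7 and 18.5 CPM at 24 hr in *snf1*∆, with no overlap (log2 fold change 2.95 ± 0.78 SE, adjusted p = 0.0051). WT had 127, 102 and 245 CPM at 48 hr, against 31.0, 22.5 and 68.1 CPM at 24 hr. The difference of responses was positive for 3 members, and for 0 without replicate 3 or with library size alone. Libraries were made from poly(A) RNA, which mitochondrial transcripts of yeast lack, so their level also depends on carry-over through that selection, whose part was not tested.

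Some glucose-repressed transporters and sugar genes rose, a part of them in 1 library only. Of 22 hexose transporters and glucose sensors, 9 were higher and 0 lower (median 0.77). Without replicate 3, 7 were higher (median 0.30). With library size alone 5 were higher and 3 lower. In WT 1 was higher and 7 lower with TMM. *HXT4*, a hexose transporter used at low glucose, had 1462, 1589.7 and 3733 CPM at 48 hr, against 177, 170.2 and 142 CPM at 24 hr. Replicate 3 was the highest, and the rise held without it (log2 fold change 3.80 ± 0.42 SE, adjusted p = 7.7e-07, or 3.23 without it). In WT the same gene fell (-2.56 ± 0.39 SE, adjusted p = 5.3e-05), with 364, 283 and 119 CPM at 48 hr, against 1590.2, 1644 and 1289 CPM at 24 hr. *HXT6* and *HXT7*, high-affinity transporters, share 95% of their 75-base sequences, so their reads cannot be told apart. *HXT7* had 5991, 6221 and 9571 CPM at 48 hr, against 1606, 1569 and 1118 CPM at 24 hr (log2 fold change 2.34 ± 0.26 SE, adjusted p = 8.8e-07), and its WT levels were 5084, 4011 and 6255 CPM at 48 hr, against 22603, 22618 and 16529.9 CPM at 24 hr. *MTH1*, a regulator of transporter genes in glucose sensing, had 458, 429.6 and 222 CPM at 48 hr, against 66.4, 59.3 and 39.1 CPM at 24 hr (log2 fold change 2.76 ± 0.31 SE, adjusted p = 9.6e-07).

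*SUC2* (YIL162W, chromosome IX, 37385 to 38983), the invertase that splits sucrose and a classic Mig1 target, had 125, 139 and 3279 CPM at 48 hr, against 48.8, 47.2 and 35.2 CPM at 24 hr. Its late group spans more than 20-fold because replicate 3 alone was high. The log2 fold change was 4.76 ± 1.02 (SE, adjusted p = 0.0011) with all libraries and 1.6 (adjusted p = 0.043) without replicate 3. WT had 648, 536 and 744 CPM at 48 hr, against 2134, 2167 and 2030.2 CPM at 24 hr, lower without overlap. The WT change was not called (-1.72 ± 0.89 SE, adjusted p = 0.13), in a fit whose spread is shared with the *snf1*∆ libraries. *MAL11*, a maltose permease, had 51.3, 42.7 and 115 CPM at 48 hr, against 16.1, 9.44 and 7.44 CPM at 24 hr. Each late library was above the early ones (log2 fold change 2.72 ± 0.37 SE, adjusted p = 1.1e-05, or 2.16 without replicate 3). Of 17 sucrose, maltose and galactose genes 16 were in the table, of which 10 rose and 1 fell, and 7 rose without replicate 3. Scaled by library size alone, 7 rose and 2 fell. The list took 0.04, 0.04 and 0.39% of counts in *snf1*∆ at 48 hr and 0.04% in each library at 24 hr. Its share thus rose in replicate 3 only. In WT 0 rose and 6 fell with TMM.

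Mig1 recognises a GC-rich box. The search used CCCC followed by A or G and then by C or G, on both strands. A match stood in the upstream window of 1230 of 6000 genes (20.5%), of 13 of 22 hexose transporters and sensors (59.1%) and of 15 of 16 sucrose, maltose and galactose genes (93.8%). Both lists hold genes under glucose repression, so these shares describe the lists and not the late change. The stretches before *SUC2* and *HXT4* are shown with matches in capitals, because *HXT4* rose in all late libraries and most of the *SUC2* rise lay in 1.
SUC2, chrIX:36885-37004, plus strand: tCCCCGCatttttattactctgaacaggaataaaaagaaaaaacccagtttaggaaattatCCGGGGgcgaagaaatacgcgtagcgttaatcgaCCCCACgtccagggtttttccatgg
HXT4, chrVIII:289192-289311, minus strand: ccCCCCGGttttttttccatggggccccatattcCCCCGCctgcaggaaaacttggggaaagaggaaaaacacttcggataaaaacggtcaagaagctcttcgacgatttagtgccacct
The *SUC2* window held 3 matches, all shown, and the *HXT4* window held 4, of which 2 are shown. Both genes carry the box, and their late levels differed in how far they rested on replicate 3. Here too a match describes the letters and not a bound site.

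Most genes of growth on ethanol and acetate did not rise outside replicate 3. Of 17 genes of the glyoxylate cycle, gluconeogenesis and their activators, 7 rose and 0 fell with all libraries (median 0.95). Without replicate 3, 3 rose and 1 fell (median 0.07), and with library size alone 5 rose and 2 fell. In WT 7 rose and 1 fell. *ICL1*, isocitrate lyase, had 28, 36.0 and 88.0 CPM at 48 hr, against 31.0, 31.6 and 28.6 CPM at 24 hr in *snf1*∆ and was not called (log2 fold change 0.75 ± 0.39 SE, adjusted p = 0.13, or 0.07 without replicate 3). In WT it had 942, 1260.2 and 1027 CPM at 48 hr, against 129, 114 and 217 CPM at 24 hr, a rise of 2.81 ± 0.38 (SE, adjusted p = 1.3e-05) on the log2 scale. The difference of responses was -2.06 ± 0.53 (SE, adjusted p = 0.0037). *PCK1*, the first enzyme of gluconeogenesis, had 41.4, 35.4 and 66.8 CPM at 48 hr, against 28.1, 27.1 and 20.2 CPM at 24 hr in *snf1*∆ and 624, 727 and 780.0 CPM at 48 hr, against 85.1, 74.8 and 102 CPM at 24 hr in WT. Its WT rise was 3.02 ± 0.37 (SE, adjusted p = 4.3e-06), and the difference of responses was -2.08 ± 0.51 (SE, adjusted p = 0.0028). Its *snf1*∆ value lay at the threshold (log2 fold change 0.95 ± 0.38 SE, adjusted p = 0.05) and was 0.63 (adjusted p = 0.23) without replicate 3.

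*CAT8*, the activator of these genes, had 19.2, 18.0 and 65.7 CPM at 48 hr, against 19.7, 20.8 and 17.8 CPM at 24 hr in *snf1*∆, where only replicate 3 was raised (log2 fold change 0.85 ± 0.42 SE, adjusted p = 0.11, or -0.05 without it). *JEN1*, a lactate and pyruvate permease, had 91.0, 95.4 and 852 CPM at 48 hr, against 57.2, 56.0 and 37.9 CPM at 24 hr. Its rise of 2.79 was 0.89 (adjusted p = 0.11) without replicate 3. *ACS1*, acetyl-CoA synthetase, had 128, 129 and 134 CPM at 48 hr, against 85.1, 98.8 and 69.7 CPM at 24 hr, a small rise in all late libraries (log2 fold change 0.62 ± 0.17 SE, adjusted p = 0.0064). With library size alone that rise was 0.20 (adjusted p = 0.38). *ADH2*, the alcohol dehydrogenase that consumes ethanol, had 1367, 1432 and 452 CPM at 48 hr, against 245, 260.1 and 189 CPM at 24 hr. It was highest in replicates 1 and 2 (log2 fold change 2.23 ± 0.40 SE, adjusted p = 0.00018, or 2.60 without replicate 3). Its WT levels were 446, 504 and 479 CPM at 48 hr, against 291, 236 and 208 CPM at 24 hr. In both *ADH1* and *ADH2* 11.8% of the 75-base sequences also occur elsewhere in the genome, so some reads may be counted at the wrong locus. *ADH1*, described below, was also highest in replicates 1 and 2. How much of the *ADH2* level came from such reads was not tested.

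Glycolytic transcripts took a growing part of replicates 1 and 2. The 26 genes of glycolysis and fermentation made up 32.70, 33.33 and 17.77% of counts in *snf1*∆ at 48 hr, against 22.43, 24.01 and 22.46% at 24 hr. Replicate 3 was below every 24 hr library and the others above them. In WT the share was 7.10, 7.71 and 6.48% at 48 hr and 6.56, 6.45 and 5.65% at 24 hr. Of the list, 9 rose and 1 fell with all libraries, and 15 and 2 without replicate 3. With library size alone 6 rose and 5 fell, and the difference of responses turned, from 9 positive and 2 negative with TMM to 2 and 8. *TDH1*, a glyceraldehyde-3-phosphate dehydrogenase, had 95141, 96986 and 31146 CPM at 48 hr, against 32535, 35311 and 27573 CPM at 24 hr. Replicates 1 and 2 were high and replicate 3 lay among the 24 hr libraries (log2 fold change 1.23 ± 0.35 SE, adjusted p = 0.0087, or 1.59 without it), and the call was lost without 48 hr replicate 2. *ADH1*, the fermentative alcohol dehydrogenase, had 16419.8, 15674 and 5598 CPM at 48 hr, against 2645, 2675 and 1935 CPM at 24 hr (log2 fold change 2.38 ± 0.37 SE, adjusted p = 4.3e-05, or 2.73 without replicate 3).

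*HXK1*, the hexokinase isozyme that is repressed by glucose, rose alike in all late libraries, with 3109, 3276 and 3319 CPM at 48 hr, against 658, 613 and 503 CPM at 24 hr (log2 fold change 2.45 ± 0.22 SE, adjusted p = 5.3e-08). It fell in WT (-1.15 ± 0.21 SE, adjusted p = 0.00026). *DAK2*, a dihydroxyacetone kinase, had 287, 334 and 216 CPM at 48 hr, against 11.8, 14.4 and 6.75 CPM at 24 hr (log2 fold change 4.70 ± 0.27 SE, adjusted p = 2.7e-10). WT fell, with 17.9, 12.3 and 17.9 CPM at 48 hr, against 41.2, 39.8 and 34.1 CPM at 24 hr. In glycerol synthesis *GPD1*, glycerol-3-phosphate dehydrogenase, went down, with 146, 153 and 256 CPM at 48 hr, against 420.2, 397 and 298 CPM at 24 hr (log2 fold change -1.0 ± 0.25 SE, adjusted p = 0.0032). *YKR075C*, an uncharacterised gene, had 96.2, 101 and 65.2 CPM at 48 hr, against 4.81, 6.93 and 5.30 CPM at 24 hr and did not overlap (log2 fold change 3.94 ± 0.23 SE, adjusted p = 2.7e-10).

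**Figure D4:**
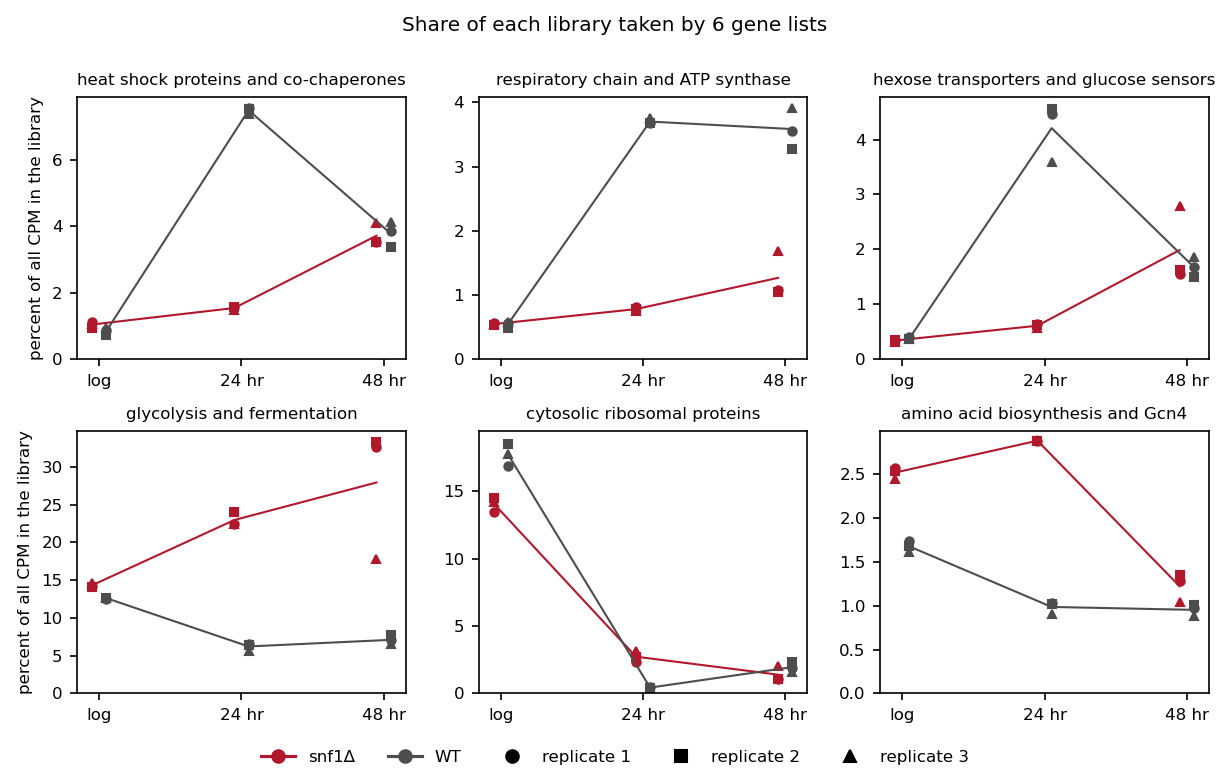
Percent of all CPM in each library taken by 6 gene lists at log, 24 hr and 48 hr. Red is *snf1*∆, grey is WT, symbols are replicates and lines join the means. Glycolytic genes reached 32.70, 33.33 and 17.77% in replicates 1, 2 and 3 of *snf1*∆ at 48 hr.

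Ribosomal protein genes fell further in *snf1*∆ and rose in WT. Of 137 cytosolic ribosomal protein genes, 50 fell and 3 rose in *snf1*∆ at 48 hr (median -0.45). Without replicate 3, 74 fell and 3 rose (median -0.63), and with library size alone 89 fell and 1 rose. In WT 134 rose and 0 fell (median 1.86). The difference of responses was negative for 130 and positive for 0. The list took 1.04, 1.07 and 2.07% of counts in *snf1*∆ at 48 hr and 2.30, 2.74 and 3.15% at 24 hr. In WT it took 1.92, 2.35 and 1.59% at 48 hr and 0.46, 0.43 and 0.41% at 24 hr. At 24 hr WT was thus the lower strain. At 48 hr every WT library lay above *snf1*∆ replicates 1 and 2. Only *snf1*∆ replicate 3, at 2.07%, reached the WT range.

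*RPL3*, a protein of the large ribosomal subunit, had 191, 183 and 362 CPM at 48 hr, against 773, 935 and 876 CPM at 24 hr in *snf1*∆ (log2 fold change -1.81 ± 0.26 SE, adjusted p = 2.1e-05). It was below the 24 hr libraries in every replicate, least so in replicate 3. WT had 325, 374 and 284 CPM at 48 hr, against 95.3, 87.4 and 71.2 CPM at 24 hr, with the 48 hr libraries all higher (1.95 ± 0.26 SE, adjusted p = 1.4e-05). *RPS27A*, of the small subunit, was an exception, with 96.8, 113 and 45.6 CPM at 48 hr, against 23.3, 31.2 and 34.5 CPM at 24 hr (log2 fold change 1.51 ± 0.26 SE, adjusted p = 0.00013). *RPP2B*, a stalk protein and the member with the highest CPM per kb, had 409, 434 and 459 CPM at 48 hr, against 546, 708 and 589 CPM at 24 hr. Its fall (log2 fold change -0.50 ± 0.19 SE, adjusted p = 0.044) was lost without 24 hr replicate 2 or 3 or 48 hr replicate 1 or 2.

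Ribosome biogenesis factors followed, with 55 of 117 lower and 8 higher in *snf1*∆ (median -0.49), and 82 higher and 3 lower in WT (median 1.01). Without replicate 3, 47 were lower and 16 higher, and with library size alone 4 rose and 77 fell. *DBP2*, an RNA helicase, had 33.2, 50.0 and 60.4 CPM at 48 hr, against 178, 197 and 197 CPM at 24 hr (log2 fold change -1.99 ± 0.23 SE, adjusted p = 1.4e-06). *RIX1*, a factor of the pre-60S particle, had 7.0, 11.3 and 4.24 CPM at 48 hr, against 26.5, 27.3 and 33.2 CPM at 24 hr (log2 fold change -1.99 ± 0.25 SE, adjusted p = 3.4e-06). Neither overlapped. *RRP46*, a subunit of the RNA exosome, went against the list, with 258, 257 and 74.2 CPM at 48 hr, against 58.9, 63.5 and 59.7 CPM at 24 hr (log2 fold change 1.69 ± 0.34 SE, adjusted p = 0.00057, or 2.08 without replicate 3). Of 11 RNA polymerase I genes, 4 fell and 2 rose in *snf1*∆, against 1 and 7 in WT. In *snf1*∆ without replicate 3, 4 fell and 1 rose.

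Genes of amino acid synthesis fell. Of 50 biosynthetic genes with *GCN4*, 32 fell in *snf1*∆ and 0 rose (median -0.90). Without replicate 3, 29 fell and 3 rose (median -0.73). In WT 17 fell and 7 rose with TMM, but 5 fell and 15 rose with library size alone. Scaled by library size alone, 0 rose and 41 fell in *snf1*∆, and at 24 hr against log 25 were higher and 14 lower (median 0.42). The list took 1.28, 1.35 and 1.04% of counts in *snf1*∆ at 48 hr and 2.88, 2.88 and 2.89% at 24 hr. *LYS9* (YNR050C, chromosome XIV, 714048 to 715388), saccharopine dehydrogenase, had 50.2, 56.7 and 96.5 CPM at 48 hr, against 807, 816 and 768 CPM at 24 hr, the largest fall by the same criteria (log2 fold change -3.55 ± 0.26 SE, adjusted p = 4.6e-09). In WT it rose, with 104, 147 and 95.2 CPM at 48 hr, against 36.5, 45.2 and 29.0 CPM at 24 hr (1.65 ± 0.25 SE, adjusted p = 4.1e-05). *LYS12*, homo-isocitrate dehydrogenase, had 63.6, 63.4 and 70.5 CPM at 48 hr, against 365, 418 and 466 CPM at 24 hr (log2 fold change -2.66 ± 0.17 SE, adjusted p = 7.8e-10). For both lysine genes the 48 hr libraries all lay below the 24 hr ones in *snf1*∆ and above them in WT. *CPA1*, of arginine synthesis, had the highest CPM per kb in the list and overlapped between times, with 3116, 3399.6 and 1156 CPM at 48 hr, against 2401, 2337 and 2052 CPM at 24 hr (log2 fold change 0.18 ± 0.36 SE, adjusted p = 0.72).

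Mating genes fell in both strains. The 6 *MAT*a-specific genes were all called lower at 48 hr in *snf1*∆ (median -2.36) and in WT (median -1.02), and the difference of responses was negative for 5. With library size alone 3 of them were lower in WT. *STE6*, the exporter of a-factor, had 44.3, 35.4 and 39.8 CPM at 48 hr, against 313, 282 and 300.2 CPM at 24 hr (log2 fold change -2.90 ± 0.20 SE, adjusted p = 2.1e-09), and WT had 61.1, 61.3 and 40.2 CPM at 48 hr, against 128, 136 and 78.5 CPM at 24 hr. *BAR1*, the protease that destroys alpha-factor, had 51.3, 75.4 and 59.4 CPM at 48 hr, against 391, 403 and 413 CPM at 24 hr (log2 fold change -2.70 ± 0.20 SE, adjusted p = 4.4e-09). *AGA2*, the adhesion subunit of a-agglutinin, had 67.1, 72.0 and 69.5 CPM at 48 hr, against 837, 781 and 693 CPM at 24 hr (log2 fold change -3.47 ± 0.24 SE, adjusted p = 1.5e-09). *MFA2*, which encodes a-factor, had 683, 767 and 250.3 CPM at 48 hr, against 1676, 1725 and 1354 CPM at 24 hr. Replicate 3 was the lowest (log2 fold change -1.48 ± 0.30 SE, adjusted p = 0.00064, or -1.13 without it).

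Several further genes are described because of the size of their change. *TNA1*, the nicotinic acid permease, had 150.5, 166 and 311 CPM at 48 hr, against 915, 1025 and 828 CPM at 24 hr (log2 fold change -2.14 ± 0.23 SE, adjusted p = 6.9e-07). *YGR259C*, by its name a neighbouring ORF on the opposite strand that the annotation used here does not list, had 21.6, 22.0 and 49.3 CPM at 48 hr, against 226, 229 and 203 CPM at 24 hr (log2 fold change -2.81 ± 0.27 SE, adjusted p = 1.8e-07). With the strand option of the counting unknown, its reads and those of *TNA1* cannot be told apart. *NMA1*, which makes NAD from nicotinamide or nicotinic acid mononucleotide, rose, with 332, 319 and 303 CPM at 48 hr, against 91.6, 92.6 and 79.9 CPM at 24 hr (log2 fold change 1.85 ± 0.13 SE, adjusted p = 1.5e-09). Over 18 sirtuin and NAD genes, 5 rose and 5 fell, or 6 and 5 without replicate 3. *PHO3*, a phosphatase regulated by thiamine, had 11.1, 12 and 21.7 CPM at 48 hr, against 101, 104 and 89.7 CPM at 24 hr (log2 fold change -2.70 ± 0.27 SE, adjusted p = 3.2e-07). Of 22 thiamine and vitamin B6 genes, 9 fell and 2 rose, or 8 and 3 without replicate 3. *ZPS1*, induced by the zinc factor Zap1, had 1812, 1921 and 2215 CPM at 48 hr, against 11196, 11094 and 11891 CPM at 24 hr (log2 fold change -2.52 ± 0.27 SE, adjusted p = 4.6e-07). *VEL1*, another Zap1 target, had 218, 242 and 107 CPM at 48 hr, against 937, 910.4 and 989 CPM at 24 hr (log2 fold change -2.33 ± 0.32 SE, adjusted p = 1.1e-05). Only 3 of 13 listed zinc genes fell and 1 rose, so the pair does not describe the list.

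In the proteasome, 22 of 37 genes fell by small amounts and 2 rose (median -0.40), and with library size alone 1 rose and 29 fell. *RPN4*, the transcription factor for proteasome genes, was 1 of those that rose, with 114, 103 and 138 CPM at 48 hr, against 28.1, 27.7 and 31.1 CPM at 24 hr (log2 fold change 2.03 ± 0.13 SE, adjusted p = 7.8e-10). *UMP1*, an assembly chaperone, had 21.0, 18.7 and 33.4 CPM at 48 hr, against 59.4, 63.5 and 58.6 CPM at 24 hr (log2 fold change -1.30 ± 0.26 SE, adjusted p = 0.00064). WT had 12 lower and 0 higher with TMM, but 0 and 7 with library size alone. In sulfate assimilation and methionine metabolism 11 of 23 rose and 1 fell (median 0.70), and with library size alone 6 rose and 3 fell. Leaving out replicate 3, 12 rose and 2 fell. *MUP3*, a methionine permease, had 188, 209 and 135 CPM at 48 hr, against 21.9, 21.6 and 21.6 CPM at 24 hr (log2 fold change 3.03 ± 0.33 SE, adjusted p = 6.4e-07). *MET13*, methylenetetrahydrofolate reductase, fell, with 36.7, 39.4 and 32.9 CPM at 48 hr, against 145, 119.6 and 101 CPM at 24 hr (log2 fold change -1.75 ± 0.19 SE, adjusted p = 5.5e-07). The difference of responses for this list was 5 positive and 1 negative with TMM, but 2 and 7 with library size alone.

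Ergosterol synthesis depended on replicate 3. Of 25 genes, 5 fell and 1 rose with all libraries, against 17 and 0 without it (median -0.39, or -0.79 without it). Scaled by library size alone, 0 rose and 13 fell. In WT 8 rose and 4 fell. *ERG25*, a methyl sterol oxidase, had 136, 121 and 403 CPM at 48 hr, against 563, 556 and 568 CPM at 24 hr in *snf1*∆ (log2 fold change -1.35 ± 0.40 SE, adjusted p = 0.011, or -2.13 without replicate 3). It was below 24 hr in all late libraries, but the call was lost without 48 hr replicate 1 or 2. WT had 457, 660.1 and 274 CPM at 48 hr, against 73.7, 77.5 and 67.4 CPM at 24 hr, with a difference of responses of -4.02 ± 0.58 (SE, adjusted p = 1.5e-05). *ERG3*, a desaturase, had 243, 199 and 879 CPM at 48 hr, against 596, 578 and 632 CPM at 24 hr. Replicate 3 lay above the 24 hr libraries and the others below them (log2 fold change -0.45 ± 0.45 SE, adjusted p = 0.44, or -1.45 (adjusted p = 0.0043) without replicate 3).

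Replicate 3 at 48 hr was at least 4-fold above both other replicates for 80 of 5706 genes and at least 4-fold below both for 60. The 5706 genes averaged 3 or more in log2 CPM over the 6 *snf1*∆ libraries. That mean includes replicate 3, so a gene can pass through a high level there, which favours the 80 over the 60. Of the 80, 59 were also at least 4-fold up in both JS1416 replicates 2 and 3 at 48 hr, and JS1416 replicate 1 lay within 2-fold of *snf1*∆ replicates 1 and 2 for 75. Of the 60, the corresponding counts were 37 and 60. *FLO11*, the flocculin of invasive growth and biofilms, had 16.9, 14.0 and 1522 CPM at 48 hr, against 14.2, 12.1 and 8.46 CPM at 24 hr. In this gene 21.8% of the 75-base sequences also occur elsewhere in the genome, so some reads may be counted at the wrong locus. Replicates 1 and 2 lay close to the 24 hr libraries, and the log2 fold change of 5.51 became 0.46 (adjusted p = 0.75) without replicate 3. *TIR1*, a cell wall mannoprotein, had 8.16, 6.67 and 270.4 CPM at 48 hr, against 5.53, 5.01 and 5.30 CPM at 24 hr, with 0.50 (adjusted p = 0.77) without replicate 3. *CWP1*, another wall protein, had 25.1, 25.4 and 414 CPM at 48 hr, against 7.94, 9.63 and 10.9 CPM at 24 hr, with 1.38 (adjusted p = 0.12) without it. *TSL1*, *INO1* and *ERG29* had log2 fold changes of 0.78, 1.17 and 1.38 and lost their calls without replicate 3, at 0.49 (adjusted p = 0.18), 0.35 (adjusted p = 0.44) and 0.50 (adjusted p = 0.36). *NOP10* and *BNA1* were not called with all libraries, at 0.50 and 0.66, and were called without replicate 3, at 0.77 (adjusted p = 0.0098) and 0.97 (adjusted p = 0.0011). By contrast *MGA1*, a regulator related to heat shock factor, had 89.2, 81.4 and 61.0 CPM at 48 hr, against 14.9, 19.8 and 10.8 CPM at 24 hr, alike in the late libraries (log2 fold change 2.37 ± 0.23 SE, adjusted p = 2.1e-07). Among 10 flocculins and their activators, 5 rose and 1 fell, or 4 and 1 without replicate 3.

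**Figure D5:**
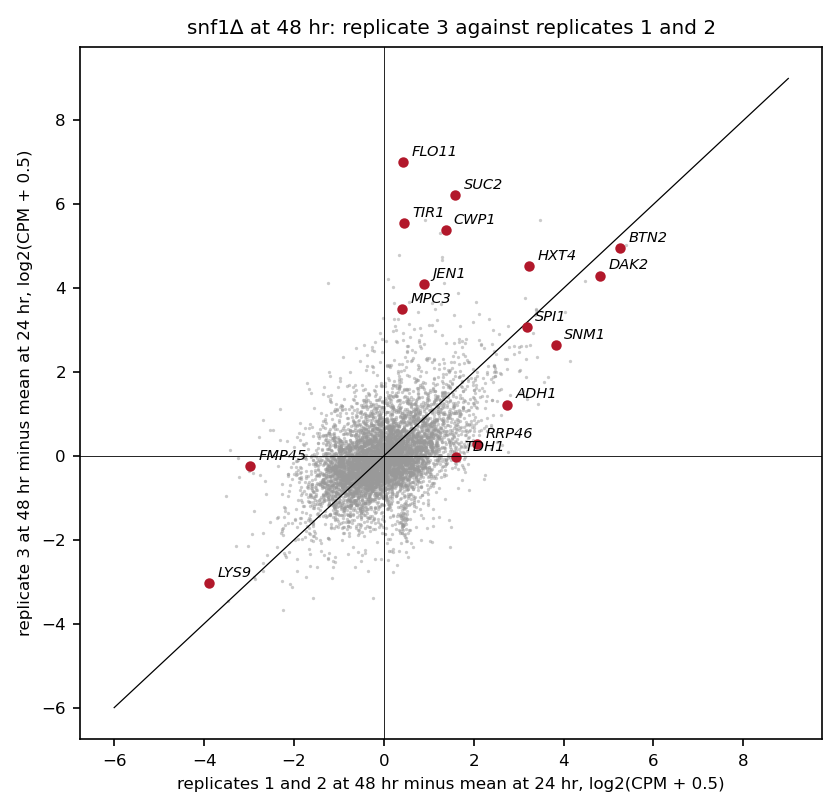
Each point is 1 of 6484 genes. The horizontal axis gives the mean of *snf1*∆ replicates 1 and 2 at 48 hr and the vertical axis replicate 3 at 48 hr, each minus the *snf1*∆ mean at 24 hr, on the log2(CPM + 0.5) scale, and the diagonal marks equal change. *FLO11*, *TIR1* and *CWP1* lie far above it, whereas *BTN2* and *LYS9* lie near it.

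Neither the corepressor nor the repressor gene was called. *CYC8*, of the corepressor, had 39.1, 36.0 and 49.3 CPM at 48 hr, against 41.4, 44.3 and 34.9 CPM at 24 hr, which overlapped (log2 fold change 0.06 ± 0.18 SE, adjusted p = 0.83). *MIG1* had 22.2, 22.7 and 64.2 CPM at 48 hr, against 33.9, 24.5 and 30.2 CPM at 24 hr, with replicate 3 above the rest (log2 fold change 0.32 ± 0.35 SE, adjusted p = 0.48, or -0.40 without it). Over 18 genes of the Snf1 complex, its regulators and the Mig1 and Cyc8-Tup1 repressors, 5 rose and 2 fell (median 0.19), against 4 and 3 without replicate 3.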

How the data were processed

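Poly(A) RNA of yeast was sequenced as 24 directional libraries with 75-base single-end reads. The authors used bowtie2 and the sacCer3 genome for alignment and bedtools multicov for counting per ORF. The deposited values are whole-number counts, used unchanged. Versions and the strand option are not given in the sources used here. Of 6692 rows, 6616 passed edgeR's expression filter. Columns were mapped to samples by strain, time and replicate in their names. Counts were fitted over all groups with edgeR 4.0.16 (R 4.3.3, TMM factors, quasi-likelihood F-test, Benjamini-Hochberg adjusted p under 0.05), with the difference of responses as an interaction contrast. SEs are log2 fold change SEs from that fit. P-values measure the spread between the replicate libraries, which the methods describe as triplicate cultures. That spread was fitted per gene over all groups, so mutant libraries that stand apart can also widen it for WT. The fitting steps were tested on simulated data.

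Genes named were the 8 largest called changes in each direction with no overlap and a mean log2 CPM of 3 or more, 6 late and 6 fading genes, up to 4 genes per list and preset regulators. Late genes were the largest such rises among genes raised in WT at 24 hr with a called positive difference of responses. Fading genes were the largest such falls with a called negative difference of responses. The gene lists and rules were chosen with earlier results of these data known. Each named gene was searched for 75-base sequences occurring elsewhere in the genome. Locations, windows and sequences came from the RefSeq R64 assembly, whose sequence is that of sacCer3, and 6008 gene names matched its annotation. Alternatives were other size factors, no filter or a stricter one, DESeq2 1.42.0, a stricter threshold, only the compared groups, dropping each library in turn and a replicate block. Replicate numbers were shared between times. Same-numbered libraries deviated together with correlations of 0.041, 0.05 and 0.012, against -0.036 to -0.007 for differently numbered ones. Whether the numbers mark the same culture was not settled by these small values, and the main fit has no block. Shallower 48 hr libraries leave low genes less precise. Of the genes that the rule picked, those of lists given only as counts and some others are not reported here.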

Additional observations from a re-analysis of the deposited data

Results flagged for a closer look

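The 48 hr against 24 hr change differed between *snf1*∆ and WT, by edgeR's test of the difference itself (*snf1*∆ minus WT, Benjamini-Hochberg adjusted), for 2783 of 6616 genes, and among them were 63 of the named genes. The late and fading genes were named partly because this difference was called, so the count of 63 carries no weight of its own. A positive value, in log2 units, means that the change at 48 hr was the more positive one in *snf1*∆.

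The difference was positive for 42 of these genes. The largest values were SUC2 6.48, HXT4 6.36, DAK2 5.95, BTN2 5.22, FLO11 5.2, YKR075C 4.85, TMA10 4.65, HXT7 4.35, HSP30 4.27 and CYC7 4.24. Next came HXT6 4.20, HSP82 4.12, SPI1 3.88, MAL11 3.72, HXK1 3.60, MTH1 3.46, MGA1 3.25, SNM1 3.17, MUP3 3.15 and JEN1 3.04. These were followed by SDH1 2.89, NDE1 2.88, MPC3 2.86, NQM1 2.85, SDH4 2.79, RPN4 2.56, HOR7 2.30, NMA1 2.2, RRP46 2.05 and STF2 1.99. The smaller values were ADH1 1.99, TSL1 1.88, CAT8 1.72, TDH1 1.56, ATP15 1.41, NTH1 1.38, BNA1 1.38, PHD1 1.30, ACS1 1.26 and INO1 1.26. The lowest were TPS1 0.72 and CYC8 0.67.

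The difference was negative for 21 of these genes. The largest were LYS9 -5.2, LYS12 -4.63, ERG25 -4.02, DBP2 -3.94, RPL3 -3.77, PHO3 -3.71, ERG3 -3.22, RIX1 -2.97 and AGA2 -2.55. The next were VEL1 -2.48, ZPS1 -2.43, YGR259C -2.22, PCK1 -2.08, ICL1 -2.06, STE6 -1.83, TNA1 -1.70, BAR1 -1.69, GPD1 -1.49 and RPP2B -1.33. The others were UMP1 -1.20 and MET13 -1.15.

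Several of these values rest on *snf1*∆ replicate 3 at 48 hr. Without it the difference was no longer called for FLO11 (0.15), JEN1 (1.15), MPC3 (1.03), CAT8 (0.82), PHD1 (0.70), TPS1 (0.64), CYC8 (0.53) and INO1 (0.44). SUC2 dropped to 3.31 and NDE1 to 1.83, both still called, while ICL1 (-2.74), ERG25 (-4.80) and ERG3 (-4.22) became more negative. Leaving out a single other library also ended the call of CYC8, TPS1, INO1 and PHD1, and of FLO11 without *snf1*∆ replicate 3 at 24 hr. With library size as the only scale CYC8 and TPS1 turned negative, and the calls of MPC3 (2.14), TSL1 (1.03), ADH1 (0.96), CAT8 (0.90), TDH1 (0.55), ATP15 (0.50), PHD1 (0.47), INO1 (0.42), BNA1 (0.37) and ACS1 (0.35) were lost. No cause of these differences was tested.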

How the results depend on the processing

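Library size as the only scale moved the counts most: it gave 624 higher and 2675 lower genes in *snf1*∆, 2853 and 244 in WT, and 383 positive and 3626 negative differences of responses, against 1313 and 1422, 1294 and 1309, and 1329 and 1454 with TMM. It also reversed the difference of responses of *CYC8* (-0.24, against 0.67), *TPS1* (-0.17, against 0.72) and *SEM1* (-0.86, against 0.11), and the cause was not tested. An adjusted p under 0.01 left 1815 genes in *snf1*∆ (917 lower), 1627 in WT (757 lower) and 878 positive differences. Fitting only the compared groups, with fewer libraries to set the spread, gave 1714 genes in *snf1*∆, 756 of them lower. The same fit with a replicate block gave 1027, 584 higher and 443 lower, although the numbers were not shown to pair the libraries. Requiring 10 counts in every library, which tests fewer genes, left 732 lower in WT. Other size factors, no filter, robust estimation and DESeq2 kept every count within 1.5 times. Leaving out each library in turn gave 1073 to 1419 higher and 1086 to 1617 lower genes in *snf1*∆, 1020 to 1215 and 896 to 1267 in WT, and 1095 to 1506 positive and 1255 to 1696 negative differences. Leaving out both *snf1*∆ replicate 3 and JS1416 replicate 1 at 48 hr gave 1730 higher and 1836 lower genes in *snf1*∆. Depth limits genes of few counts, above all at 48 hr.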

Other observations

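Histone genes rose in *snf1*∆ at 48 hr, 7 of 11 with 0 lower (median 0.99), and without replicate 3 6 rose and 1 fell. Scaled by library size alone, 4 rose and 0 fell, and the list took 0.11, 0.11 and 0.20% of counts at 48 hr and 0.12, 0.14 and 0.15% at 24 hr. Of 71 mitochondrial ribosomal protein genes 20 rose and 2 fell, a median of 0.19, against 26 and 5 without replicate 3. With library size alone 9 rose and 18 fell, on a scale that gave 624 higher and 2675 lower of all 6616 genes. In autophagy 6 of 37 rose and 9 fell, against 9 and 11 without replicate 3. *ATG8*, whose product coats the autophagosome, had 349, 299 and 197 CPM at 48 hr, against 73.8, 84.5 and 76.7 CPM at 24 hr (log2 fold change 1.84 ± 0.26 SE, adjusted p = 1.5e-05). *ATG39*, a receptor for autophagy of the nucleus, had 63.0, 82.1 and 150.1 CPM at 48 hr, against 23.8, 21.0 and 22.2 CPM at 24 hr (log2 fold change 2.14 ± 0.27 SE, adjusted p = 4.2e-06). Of 24 cyclins and G1 inhibitors 3 rose and 8 fell, against 3 and 10 without replicate 3. Iron uptake had 4 of 26 higher and 5 lower, but 2 and 9 without replicate 3. Phosphate starvation had 7 of 18 higher and 2 lower, and 5 and 2 without it. Nitrogen catabolite repression had 9 of 29 higher and 5 lower, but 7 and 8 without it. Peroxide defence had 7 of 26 higher and 6 lower, and 7 and 8 without it. Scaled by library size alone, autophagy, cyclins, iron, phosphate, nitrogen and peroxide genes each had more members lower than higher. The same held for all genes on that scale, so it does not set these lists apart.

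*SNM1*, a subunit of RNase MRP whose ORF lies just downstream of *SNF1* (chromosome IV, 1414575 to 1415171), was chosen after its values were seen. It had 752, 734 and 326 CPM at 48 hr, against 51.9, 50.4 and 53.8 CPM at 24 hr in *snf1*∆ (log2 fold change 3.53 ± 0.30 SE, adjusted p = 4.2e-08). In WT it had 15.6, 14.3 and 9.83 CPM at 48 hr, against 8.77, 10.6 and 11.1 CPM at 24 hr. The deletion cassette stands beside this gene, and its part in these levels was not tested.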
